A study of Citrus sinensis with 10 samples.

Results

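A group of 135 cDNA clones was followed in the fruit of a red-fleshed sweet orange (Citrus sinensis). The clones were higher in the mutant than in the wild type 150 days after flowering and lower on day 170, at least 2-fold on both arrays of each day, and did not reach that limit again on both arrays of day 190. The mutant, Hong Anliu, is a bud mutant, which is a line grown on from a changed shoot, and Anliu is its wild type. Fruit of Hong Anliu and Anliu was collected 120, 150, 170, 190 and 220 days after flowering. RNA of both lines was hybridized together on 2 arrays per collection, with the dyes Cy5 and Cy3 swapped between them, which gave 10 arrays. No treatment is named, and whether a collection came from 1 tree or several is not stated in the labels.

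A clone was a member where its log2 ratio, mutant over wild type, was at least 1 (2-fold) on both arrays of day 150 and at most -1 on both arrays of day 170. It also had to miss the first limit on at least 1 array of day 190. Of the 5856 clones on the array 135 met this, and all 135 passed the filter against blank spots that kept 5852. The members were thus chosen by their measured ratios on days 150, 170 and 190, and these values are given as a description and carry no test. The ratios on days 120 and 220 and the level of a clone averaged over both genotypes were not used.

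Some red-fleshed sweet oranges owe their colour to lycopene, a red carotenoid that in ordinary sweet orange flesh is converted further and does not build up. The carotenoids of citrus flesh accumulate as the fruit passes from growth to ripening, while acids fall and sugars rise, and many transcripts shift over the same weeks. A cDNA clone carries a stretch of 1 transcript, and several clones on an array can carry the same transcript, so clones are not a count of genes. No column of the files used here pairs a clone with a gene, 0 of the 5856 clone names were found in the gene table at hand, and the pathway lists drawn up for carotenoids, photosynthesis, cell walls, sugars, acids, ethylene and flavonoids could not be counted. Clones are therefore given by plate, row and column of the clone collection, and nothing is said of what they encode.

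Because the normalization centres the ratios of an array, each is a difference from its typical clone. Centring on the control spots Y1 to Y4 instead placed the median of all clones at -1.96 on day 120, -0.21 on day 150, -0.58 on day 170, -0.20 on day 190 and 1.14 on day 220. On that scale the members stood at -1.98, 1.10, -2.69, 0.24 and 2.05, so that on day 120 131 of the 135 were 2-fold lower, as were 93.8% of all clones. Across all clones the ratios on day 170 correlated with those on day 150 at r = -0.32 (5850 clones). The values were -0.27 with day 190, -0.51 with day 220 and 0.20 with day 120. Among the pairs without day 170, days 120 and 220 correlated at -0.38 and the other pairs between 0.13 and 0.66. The labels and the file headers name the dye of each genotype on every array, and the direction is kept as they give it. Whether the genotypes were exchanged on day 170 was not tested. With the sign on day 170 turned, the 135 clones would be higher in the mutant at both 150 and 170 days.

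The members' ratios were high on day 150 and low on day 170, as the rule demands. On day 150 they ran from 1.01 to 2.41 with a median of 1.34, and on day 170 from -4.36 to -1.03 with a median of -2.08. The medians of the dye-swapped arrays were 1.34 and 1.33 on day 150 and -2.07 and -2.03 on day 170. The limits of the rule fix the sign of these values and narrow their range. The clones that only the limit on day 190 left out had a median of 2.29 on day 150. Of all clones 7.18% were 2-fold higher on both arrays on day 150 and 17.1% were 2-fold lower on day 170. The spread among members was wider on day 170 (SD 0.73) than on day 150 (SD 0.26), against a spread between dye-swapped arrays of 0.15 and 0.18.

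**Figure D1:**
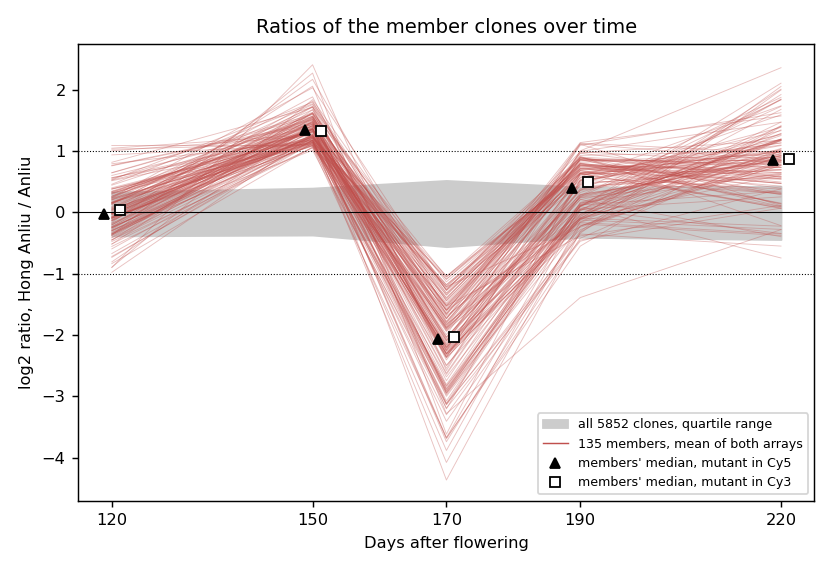
Log2 ratio of Hong Anliu over Anliu (y) against days after flowering (x), with 1 line per member (mean of both arrays), black marks for the members' median on each array, a grey band for the quartile range of all 5852 clones and dotted lines at -1 and 1. The members' median is near 0 on day 120, 1.34 on day 150, -2.08 on day 170, 0.45 on day 190 and 0.85 on day 220.

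Clone 1.C.7 lay nearest to the median profile of the group by the sum of squared distances over the 10 arrays. Its ratios were -0.09 and -0.18 on the arrays of day 120, 1.36 and 1.36 on day 150, and -2.03 and -1.77 on day 170. They were 0.23 and 0.35 on day 190 and 0.86 and 0.80 on day 220. The clone was thus on the mutant's side again on day 220, while the rule itself sets its arrays of 150 and 170 days apart. In the deposited intensities, as the mean of 3 spots, the mutant gave 4518 and 4813 on day 150 against 2800 and 2269 in the wild type. On day 170 the mutant gave 1045 and 822 against 5721 and 4558.

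The largest distance between 150 and 170 days was that of clone 9.D.3, with ratios of 2.09 and 2.45 on day 150 and -3.58 and -3.65 on day 170. Its intensity in the mutant was 7566 and 11390 on day 150 and 677 and 456 on day 170, while that in the wild type was 2884 and 2461 and then 10952 and 9302. The intensity of the mutant was thus lower on day 170 than on day 150, and that of the wild type higher. Clone 10.D.4 had the lowest ratios of the group on day 170, -4.26 and -4.46, after 1.58 and 1.36 on day 150. It returned to 1.56 and 1.26 on day 220. Clones 10.B.7, 27.B.2, 12.G.6 and 19.E.10 came next by that distance, with mean ratios on day 170 between -4.08 for 27.B.2 and -3.28 for 10.B.7.

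On day 120 the members did not stand apart from the other clones. Their median ratio was -0.02, with medians of -0.03 and 0.03 on the arrays, against 0.0033 for all clones. Both arrays gave a ratio above 0 for 54 members and below 0 for 55, where 43.6% and 43.1% of all clones did so. Only 2 members, 25.G.1 and 20.G.3, were 2-fold higher on both arrays (background 3.62%), and 0 were 2-fold lower (background 5.19%).

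Clone 25.G.1 had ratios of 1.11 and 1.07 on day 120, 1.05 and 1.12 on day 150, -1.47 and -1.31 on day 170, 0.70 and 0.83 on day 190 and 0.58 and 0.71 on day 220. It was higher in the mutant at every time point but 170 days, although with the control spots as the centre it stood at -0.87 on day 120. Clone 20.G.3 was at 1.03 and 1.06 on day 120 and clone 10.A.1 at 0.99 and 1.07, just short of the limit on 1 array. With the control spots as the centre 20.G.3 was at -0.91. At the other end clone 15.A.6 had -1.28 and -0.67, clone 25.B.5 -0.87 and -0.93 and clone 28.G.5 -0.79 and -1.005. Members that shared the profile on days 150 and 170 thus lay on both sides of 0 on day 120, and 105 of the 135 lay between -0.5 and 0.5.

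On day 190, where the rule left out the higher clones, the members' median was 0.45 (0.39 and 0.49 on the arrays). It lay above 0 on both arrays for 93 members (background 44.3%) and below 0 for 23 (background 42.8%), counts that the rule touches. Of the 135, 58 had a mean ratio between 0.5 and 1. Clone 10.B.7 alone was 2-fold lower on both arrays, at -1.33 and -1.45 (background 4.80%). The next lowest were 19.E.10 at -0.52 and -0.58 and 19.B.11 at -0.35 and -0.60. The highest were 19.G.7 at 0.97 and 1.31, 15.A.6 at 1.27 and 0.98 and 19.B.6 at 1.25 and 0.98, and the limit on both arrays cut just above them.

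On day 220 42 of the 135 members, 31.1%, were 2-fold higher in the mutant on both arrays and 0 were 2-fold lower. Of all clones 4.37% were higher and 2.19% lower. The members' median ratio was 0.85, with 0.85 and 0.86 on the arrays, against -0.06 for all clones. Both arrays lay above 0 for 117 members (background 38.3%) and below 0 for 9 (background 44%). This time point was not used to choose the members, but with 1 collection per genotype it allows no test. With the control spots as the centre 122 members were 2-fold higher, where 50.9% of all clones were.

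Clone 25.B.5 had the highest ratios on day 220, 2.43 and 2.28. It stood at 2.18 and 2.64 on day 150, -2.51 and -2.65 on day 170 and 1.09 and 0.91 on day 190, so that 1 array of day 190 kept it in the group. Its intensity on day 220 was 14141 and 15705 in the mutant against 1493 and 1879 in the wild type. Clone 20.F.4 followed with 2.03 and 2.18, after ratios of only 1.06 and 1.05 on day 150 and -3.55 and -3.80 on day 170. Clone 15.E.12 stood at 2.08 and 2.02, with 1.15 and 1.02 on day 150 and -3.25 and -3.35 on day 170. In both, the mutant stood close to the wild type on day 190 (-0.09 and 0.26 for 20.F.4, -0.31 and -0.30 for 15.E.12).

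The lowest members on day 220 were 1.H.10 at -0.76 and -0.72, 1.E.3 at -0.63 and -0.47 and 18.G.5 at -0.45 and -0.34. None of the 3 was 2-fold lower. Clone 1.H.10 was also the member least like the median profile of the group, with r = 0.82 over the 10 arrays.

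**Figure D2:**
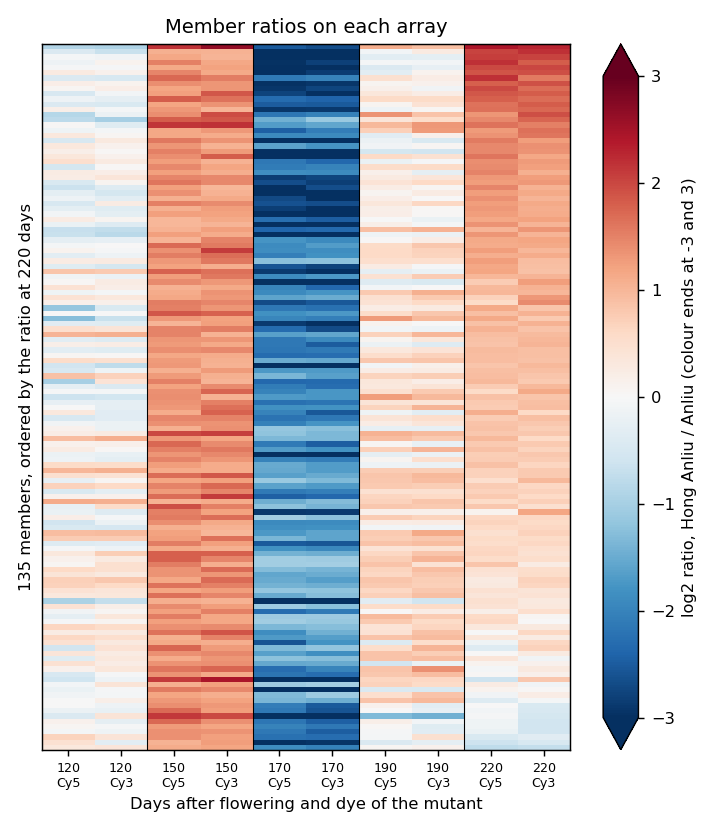
Log2 ratio of Hong Anliu over Anliu of each member (rows, ordered by the mean ratio on day 220) on each of the 10 arrays (columns, with the dye of the mutant). Red is higher in the mutant and blue lower: all 135 rows are red on day 150 and blue on day 170 as the rule demands, while on day 220 117 rows are red on both arrays and 9 are blue on both.

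The 42 members that were higher on day 220 differed from the other 93 in depth on day 170 and in height on day 190. Their median ratio was -2.69 on day 170 and 0.14 on day 190, against -1.84 and 0.61 for the rest. On day 150 the medians were close, 1.29 and 1.35. Across the 135 members the ratios on day 170 correlated with those on day 220 at r = -0.34, with those on day 120 at 0.40 and with those on day 190 at 0.61. These are descriptions over clones that share arrays and may share transcripts, and the limits of the rule narrow the range at 170 and 190 days. Over all clones 170 and 190 days correlated at -0.27.

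The share of clones that were higher on day 220 differed with the condition on day 170. Of the 204 clones that were higher on day 150 and not on day 190, whatever their ratio on day 170, 45 (22.1%) were higher on day 220. Of the 69 among them that were not lower on day 170, 3 (4.35%) were, a share near the background. Of the 653 clones that were lower on day 170 without being higher at 150 or 190 days, 124 (19.0%) were higher on day 220. Lower clones of day 170 that were higher on day 220 numbered 197 in all, and the 42 members are 21.3% of them.

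**Figure D3:**
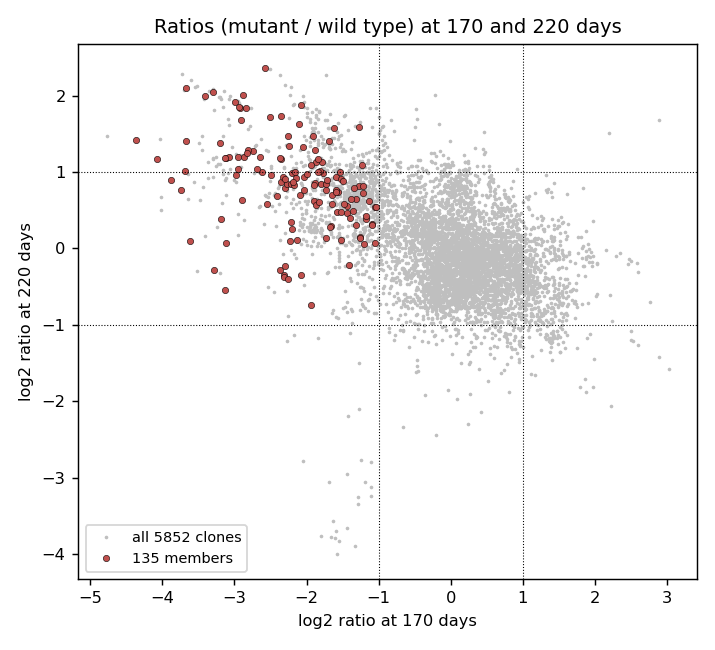
Log2 ratio on day 220 (y) against log2 ratio on day 170 (x), each the mean of both arrays, for all 5852 clones (grey) and the 135 members (red), with dotted lines at -1 and 1. The members lie left of -1 by the rule, and 46 of the 135 have a mean of at least 1 on day 220 against 0 at or below -1.

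The levels of each genotype describe the turn on day 170 separately for mutant and wild type. They compare different arrays, so array differences and development cannot be told apart in them. Levels are log2 intensities after quantile normalization over all 20 channels, and here they are given relative to the mean of each clone. In the mutant the members' median level was -0.97 on day 120, 1.01 on day 150, -1.20 on day 170, 0.67 on day 190 and 0.81 on day 220. The wild type stood at -1.01, -0.29, 0.79, 0.32 and -0.05 on these days. The mutant was thus high at 150, 190 and 220 days and low at 120 and 170 days, while the wild type was highest on day 170. With the genotypes on day 170 exchanged, the mutant would stand at 0.79 and the wild type at -1.20.

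**Figure D4:**
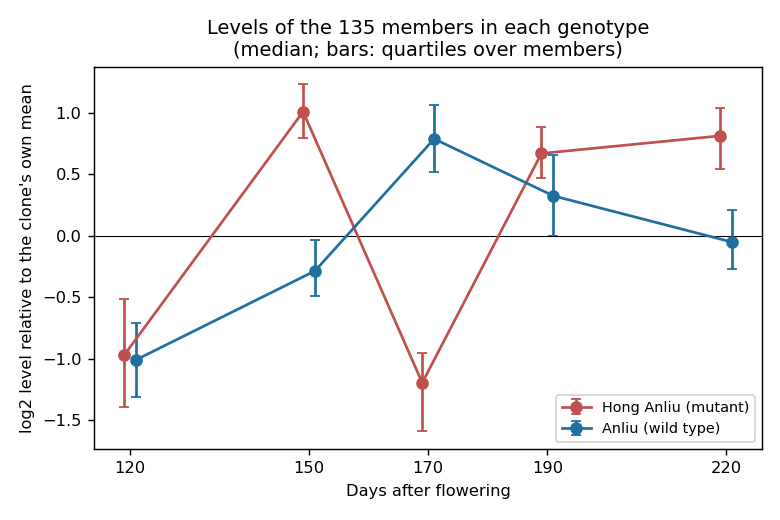
Median log2 level of the 135 members in Hong Anliu (red) and Anliu (blue) against days after flowering, relative to each clone's mean over both genotypes and all time points, with bars from the lower to the upper quartile of the members. Both start near -1 on day 120; the mutant is at 1.01 on day 150 and at -1.20 on day 170, where the wild type is at 0.79.

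Between 150 and 170 days the level was 2-fold down in the mutant, in both dye orientations, for 125 of the 135 members, and 2-fold up in the wild type for 53. Both held for 44 members, the mutant alone for 81, the wild type alone for 9 and neither for 1. This split between the genotypes was computed with the quantile normalization alone. The mutant had a median step of -2.24 and the wild type of 1.10. Since the rule asked for opposite ratios at these times, some such step had to appear; the backgrounds were 11.9% for the mutant and 5.52% for the wild type. From day 170 to day 190 123 members were 2-fold up in the mutant (background 12.2%), with a median step of 1.91, and 3 were 2-fold down in the wild type (background 4.48%).

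In the mutant most members' levels on day 170 lay somewhat below those on day 120. The median step was -0.37 (quartiles -0.65 and -0.04), against -0.01 over all clones, and the rule touches it through day 170. The median step from day 190 to day 220 was 0.14 (quartiles -0.15 and 0.42). From day 120 to day 170 1 member was 2-fold up and 1 was 2-fold down in the mutant, where 2.67% and 2.87% of all clones were. From day 190 to day 220 it was again 1 and 1, with backgrounds of 1.26% and 1.28%. In the wild type 115 members were 2-fold up from day 120 to day 170 (background 11.7%). The wild type was highest on day 170 in 113 members and lowest on day 120 in 111. The mutant was highest on day 150 in 72 members and on day 220 in 45, and lowest on day 170 in 104 and on day 120 in 31. With the genotypes on day 170 exchanged, the wild type would be highest on day 190 in 96 members and lowest on day 170 in 91, and the mutant would be lowest on day 120 in 134. The rule touches all these counts of highest and lowest days through days 150, 170 and 190. They were not taken over all clones, so no background stands beside them.

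From day 120 to day 220, the only pair of times that the rule did not use, most members stood higher at the end. In the mutant 103 of 135 (76.3%) were 2-fold up in both dye orientations and 0 were down, against 13.2% up and 10.2% down over all clones. In the wild type 48 (35.6%) were up and 0 down, with backgrounds of 8.37% and 9.67%. The mutant had a median step of 1.82, from 0.10 to 4.03 over members, and the wild type of 0.93, from -0.29 to 3.43. Different arrays are compared here, so array differences and development cannot be told apart. With levels set against the control spots Y1 to Y4 the count in the wild type was 1 and that in the mutant 135. Of all clones 0.188% were up in the wild type and 83.7% in the mutant on that scale.

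The place of the members among all clones also differed from day to day. Their median level, averaged over both genotypes, lay at percentile 36.4 of all clones on day 120 and at 68.3 on day 150. It lay at 54.1 on day 170, 69.8 on day 190 and 67.7 on day 220. For the mutant alone it was percentile 80.0 on day 150 and 31.1 on day 170, and for the wild type 50.5 and 74.9. Of 2700 channel values of the members 5, in 5 different members, lay below the limit set by the blank spots. The SD among the 3 spots of a clone had a median of 0.08 (log2) over members.

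The test of a level that moves steadily with time called few members. In limma, fitted over 5848 clones on 5 values each, 3 of 135 members (2.22%) had a rising level at an adjusted p under 0.05 and 0 had a falling one. Of all clones 2.86% were rising and 0.975% falling, so the members' share was near the background. At an unadjusted p under 0.05 in limma 63 members were rising and 0 falling, with backgrounds of 10.8% and 12.4%. All 135 slopes were above 0, as were 44.3% of those of all clones, with a median of 1.22 per 100 days (log2), against -0.08 over all clones. From single arrays 131 and 134 slopes were above 0, and without 120 days 106. The p-values set the slope against the departure of the 5 values from a straight line. With 1 collection per day and genotype they hold no spread between collections of the same day. Without 120 or 220 days 0 members passed, but 0 of all clones did so either. Without 170 or 190 days 0 members were rising, where 1.98% and 1.95% of all clones were. Without 150 days 50 of the 135 were rising, where 5.98% of all clones were. With the 10 arrays as units and the day as block 33 members were rising, where 6.38% of all clones were. With a replicate block added it was 26, where 5.66% of all clones were. The likeness to the background was found in the fit to 5 values as reported and was lost in these settings.

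The 3 members that passed were 21.G.7, 21.B.8 and 13.H.7. The mean SD among their 3 spots was 0.17, 0.24 and 0.22, against a median of 0.08 over members. Their mutant levels on day 120 were 9.77, 8.76 and 9.03, below the members' lower quartile of 9.99. The level of 21.G.7 in the mutant was 9.77 on day 120, 11.58 on day 150, 9.54 on day 170, 12.21 on day 190 and 12.53 on day 220. In the wild type it was 9.56, 10.12, 12.06, 11.74 and 11.54. The mean of both genotypes rose by 2.43 on the log2 scale over 100 days (SE 0.41, limma adjusted p = 0.0260). That of clone 21.B.8 rose by 2.16 (SE 0.42, limma adjusted p = 0.0436) and that of clone 13.H.7 by 1.70 (SE 0.32, limma adjusted p = 0.0416). On single arrays each lost its call once: 21.G.7 (limma adjusted p = 0.0596) and 21.B.8 (0.140) without replicate 2, and 13.H.7 (0.180) without replicate 1. The mutant's trough on day 170 remains in these clones, since the test reads the mean of both genotypes. With a median scaling of the arrays 13.H.7 did not pass (adjusted p = 0.0560 in limma, with 0.0130 to 0.329 over its alternatives). The smallest slopes, none of which passed, were 0.14 for 1.H.10, 0.24 for 26.H.6 and 0.25 for 2.E.2.

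Members resembled each other closely. Over the 10 arrays the median correlation of the 9045 pairs was 0.93, with a lowest value of 0.53, which the rule brings about in part. When clones were joined where every pair correlated above 0.99, the 135 members fell into 77 groups, and 88 members lay in 30 groups of more than 1. The largest group held 8 clones, 4.H.4, 27.B.2, 30.A.3, 34.A.2, 38.B.11, 41.G.9, 47.C.9 and 55.E.4, from 8 plates. Their ratios ran from 1.01 to 1.21 on day 150, from -4.08 to -2.86 on day 170, from -0.15 to 0.16 on day 190 and from 0.90 to 1.20 on day 220. The files do not show whether such clones stem from 1 transcript. Taking 1 clone per group, 18 of 77 (23.4%) were higher on day 220.

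The profile was not confined to the 135 clones. Another 140 clones correlated above 0.95 with the members' median profile over the 10 arrays, as did 85 of the members. The 5 most alike were 26.C.7 (r = 0.99), 28.G.2, 27.H.6, 2.E.9 and 9.H.2. Clone 26.C.7 missed the limit on day 150 on 1 array, with 0.84 and 1.04, and had -3.37 and -3.45 on day 170. Clone 28.G.2 was left out because it was higher on day 190 as well, with 1.17 and 1.31, after 2.62 and 2.65 on day 150. Clone 9.H.2 had the same shape at lower height, with 0.67 and 0.51 on day 150.

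The limits of the rule cut through a continuous range of values. On day 150 the members just inside were 47.H.8 (1.21 and 1.004) and 26.B.11 (1.005 and 1.15), and the clones just outside were 27.H.6 (1.21 and 0.99) and 5.B.11 (1.003 and 0.99). On day 170 56.D.9 (-1.05 and -1.02) and 11.A.11 (-1.08 and -1.02) were inside and 2.E.5 (-1.02 and -0.999) and 7.D.7 (-0.98 and -1.10) outside. On day 190 19.B.6 and 15.A.6 were inside and 22.G.7 (1.01 and 1.30) and 29.B.12 (1.21 and 1.01) outside.

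The limit on day 190 split a larger set. Of all clones 324 were higher on day 150 and lower on day 170, and 189 of them were also higher on day 190 and so are no members. These 189 had a median ratio of 2.29 on day 150, -1.37 on day 170 and 1.90 on day 190. On day 220 22 of the 189 (11.6%) were 2-fold higher, although 185 lay above 0 on both arrays. With 1 clone per group of near-identical profiles the share was 13 of 60 (21.7%), close to the 18 of 77 (23.4%) of the members. In the level slope 141 of the 189 were rising at an adjusted p under 0.05 in limma, against 3 of the 135 members. That difference was not tested.

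Members and clones left out for their ratios on day 190 differed in their shares from the earlier and later plates. Of the 135 members 118 (87.4%) came from plates 1 to 29, which hold 47.6% of the clones, and 17 from plates 30 to 61. Of the 189 clones that were also higher on day 190, 43 came from plates 1 to 29 and 146 from plates 30 to 61. Of the clones that were higher on day 150 and lower on day 170, 73.3% of the 161 on plates 1 to 29 were members, and 10.4% of the 163 on plates 30 to 61. With 1 clone per group of near-identical profiles the members were 70 and 7 and the others 28 and 32. The median of all clones also differed between the plate groups, at 0.11 and -0.04 on day 150, -0.14 and 0.14 on day 170 and 0.15 and -0.10 on day 190. With each plate group centred on its own median, a setting chosen after seeing the data, the rule found 117 clones, 90 of them on plates 1 to 29. The part of printing and of the origin of the plates in this split was not tested.

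**Figure D5:**
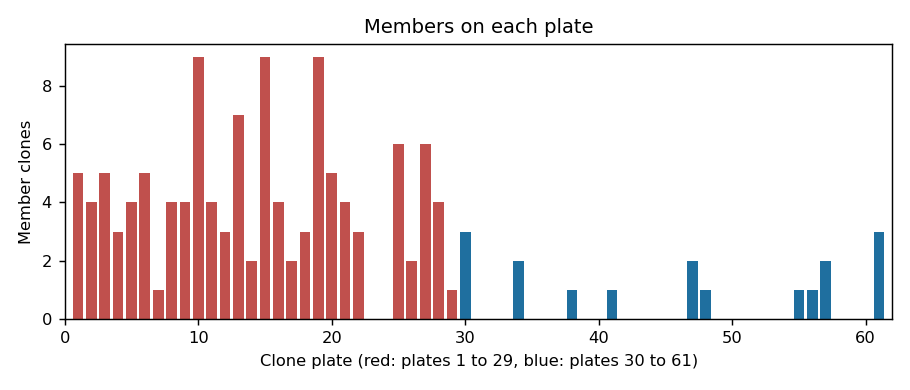
Number of member clones (y) on each of the 61 clone plates (x), with plates 1 to 29 in red and plates 30 to 61 in blue. The highest count on a plate is 9, 37 plates hold at least 1 member, and 118 of the 135 members are on plates 1 to 29.

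The rule fixes or limits the ratios of both plate groups on days 150, 170 and 190. The 17 clones of plates 30 to 61 had median ratios of -0.01 on day 120, 1.21 on day 150, -2.68 on day 170, 0.16 on day 190 and 0.84 on day 220. The 118 of plates 1 to 29 had -0.02, 1.35, -2.06, 0.46 and 0.85. On day 220 6 of the 17 and 36 of the 118 were 2-fold higher. Of the 17, 6 belong to the group of 8 near-identical profiles named above, and 5 of these 6 were 2-fold higher against 1 of the other 11. Members lay in 39 of the 48 printing blocks of the array, with at most 15 in a block.

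In the authors' deposited table of lowess ratios, which gives 1 linear ratio per clone and time point, all 135 members are listed. In the authors' deposited table their median ratio was 2.32 on day 150, 0.306 on day 170, 1.23 on day 190 and 1.77 on day 220. Only 99 of the 135 were at least 2-fold higher on day 150 in the authors' deposited table, and 116 at least 2-fold lower on day 170. On day 220 55 members had a ratio of at least 2 in the authors' deposited table, where 404 of its 5545 clones with a value did.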

How the data were processed

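RNA of Hong Anliu and Anliu fruit from 5 time points was hybridized to 10 cDNA arrays of 5856 clones with 3 spots each and 1584 control spots. The members, lists and tests were chosen with earlier results of these data known. Per the file headers, the authors deposited a Cy5 and a Cy3 intensity for each spot. Some lie below 0, so background had been subtracted, by a method not given in the sources used here. A linear ratio per spot was also deposited by the authors, and their series table holds its log2, from the values (differences of at most 5e-05). The column medians of that table lie between -0.0417 and 0.0311.

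Here the log2 ratio was computed from the intensities, leaving out values at or below 0, and normalized with a global loess in limma (version 3.58.1, R 4.3.3) with control spots at weight 0. Ratios were turned to mutant over wild type and the 3 spots of a clone averaged. The filter asked for a mean intensity in either dye above the 95th percentile of blank and solvent spots on at least 5 arrays. For levels, log2 intensities of the 20 channels were quantile-normalized. Dye-swapped arrays hold the same extracts and were averaged, so the level slope rests on 5 values and 3 residual degrees of freedom. It was fitted with lmFit and eBayes over all clones, two-sided, with Benjamini-Hochberg adjustment and a threshold of 0.05. Single time points have no replicate collection and no test. The number of arrays limits the precision. The fit was tested on simulated data.

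Named clones are those with the largest distance between 150 and 170 days, the extremes at 120, 190 and 220 days, the steepest level slopes, those next to the limits of the rule and those most like the median profile. The clones of the largest group of near-identical profiles were named after their values were seen. Alternatives covered the normalization, the centre, the filter, the offset, single arrays and left-out time points.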

Additional observations from a re-analysis of the deposited data

Results flagged for a closer look

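In 5 of the 35 sets of 5 time points that were checked, 1 value lay far from the other 4, where chance gives about 1.75 for independent sets. The sets are not independent, since the rule itself makes 170 days low. They were the ratios at 170 days of 25.G.1 (-1.39), 20.G.3 (-1.60), 10.A.1 (-1.60) and 47.H.8 (-1.65), clones that were near or above 0.9 at 120 days, and the number of members lower at 170 days (135), which the rule fixes.

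Of the 135 members 42 were 2-fold lower at 170 days and 2-fold higher at 220 days on both arrays of each time point. The rule makes every member lower at 170 days, so these are the members that were higher at 220 days. Of all 5852 clones 197 met both limits, and 4.37% were higher at 220 days. These opposite directions were not tested, since each time point has 1 collection per genotype.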

How the results depend on the processing

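The number of members was 135 and lay between 93 (loess within printing blocks) and 241 (a limit of 1.5-fold). Of the 135, 66 (48.9%) were found from the authors' series table, 65 (48.1%) with control spots Y1 to Y4 as the centre and 119 (88.1%) with median centring. A single array per time point gave 181 and 182. The settings by printing block and plate group were chosen after seeing the data, as were those on levels from 120 to 220 days.

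With members held fixed, those higher at 120 days numbered 0 with control spots, 1 by printing block, 1 by plate group and between 2 and 4 on single arrays. Those lower numbered 131 with control spots and 1 to 3 on single arrays. Higher members at 190 days were 3 in the authors' series table, 3 by printing block and 5 to 10 on single arrays. Median ratios with control spots were -1.98 at 120 days, 0.24 at 190 days and 2.05 at 220 days, where 122 members were higher. By printing block the median at 190 days was 0.26. Clones 25.G.1 and 20.G.3 stood at -0.87 and -0.91 at 120 days with control spots.

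Members with a rising level numbered 7 with levels set against Y1 to Y4, where 2.99% of all tested clones were rising. They numbered 6 with the stricter background filter (3.82% of all tested) and 8 with a trended and robust eBayes (3.37%). It was 1 to 2 on single arrays (2.21% to 2.29%), and 0 to 50 with a time point left out (0% to 5.98%). With the 10 arrays as units and the day as random block, 33 were rising with no replicate block and 26 with the replicate block, where 6.38% and 5.66% of all clones were, and 0 falling. The repeat numbers name the dye orientation. Deviations of same-numbered arrays correlated between -0.35 and 0.21 in levels and between 0.076 and 0.40 in ratios, so arrays of 1 dye orientation shared part of their deviation in the ratios. The numbers were not taken as pairs. In the wild type 1 member was up from 120 to 220 days with control spots, where 0.188% of all clones were. With a time point or a repeat left out, the slope of 1.H.10 ran from -0.97 (without 120 days) to 0.60, that of 26.H.6 from -0.045 (without 220 days) to 0.49 and that of 2.E.2 from -0.61 (without 120 days) to 0.57, turning also on a single array for each (-0.07, -0.0083 and -0.066). The cause of these shifts was not tested.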
